A study of Rattus norvegicus with 6 samples.

Results

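The densest stretches of a rat promoter array were examined in lumbar spinal cord, as consecutive windows of 10 probes. Neighbouring probes closer than 1000 bp were joined into regions, and regions on chromosomes 1 to 20 with at least 100 probes were kept. This gave 81 of the 16123 regions of the array, on 17 chromosomes. Cut from the left end of each region, they held 1556 of the 10582 windows that could be cut from the whole array, and 364 probes left over at the right ends were dropped. The rule itself used no measured value, although it was chosen with earlier results of these data known. The 3 member regions nearest the limit held 101 to 102 probes. Their mean log2 ratios in sham, on the scale given below, were -1.03 (chr14:109633735-109653634), -0.62 (chr13:92545076-92565922) and -0.57 (chr2:214782407-214802348). The 3 just outside held 94 to 98 probes and stood at 0.11 (chr4:55872333-55892109), -0.31 (chr5:74797832-74817610) and -0.66 (chr1:56454594-56475388), so the sides overlapped. Another 8 regions of that density lay on the X chromosome and were not members.

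The animals were 6 male rats of 220 to 250 g, whose lumbar spinal cords were taken 14 days after surgery. The 3 sham rats had the operation without the nerve injury, and the 3 CCI rats had a chronic constriction injury, a model of lasting neuropathic pain made by tying loose ligatures around the sciatic nerve. Strain and age were not given in the sources used here, and a whole lumbar cord mixes neurons, glia and vascular cells of both sides. The comparison asked whether DNA methylation of the cord differed between injured and sham animals. In methylated DNA immunoprecipitation (MeDIP), an antibody to 5-methylcytosine pulls down methylated fragments, and the pulled-down DNA (IP, red channel, Cy5) is hybridised with the unselected DNA of the same animal (input, green channel, Cy3). The IP/input ratio depends on how many CpG sites a fragment holds as well as on how many of them carry the methyl mark, so it orders places of unlike sequence only loosely. Long tiled stretches show what single promoters cannot: whether neighbouring pieces of the genome share a level, and how far a change in that level reaches. All values below are log2 units relative to the median probe of the same array, which is 0, and positions are in rat genome build rn4. Gene names and sequence were not used here, because the gene tables at hand were on another build.

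The tiled regions spanned 19252 to 99717 bp, with a median of 36490 bp and 3205640 bp in all, and 20 of them spanned 49000 to 51000 bp. They held 101 to 538 probes each, a median of 163 bp apart, and so 10 to 53 windows with a median of 18. A window spanned 1455 to 4287 bp, with a median of 1784 bp. Probes were 45 to 60 nt long, and the mean length was 50.66 nt in the tiled windows against 48.84 nt in the 8462 windows of other regions on the same chromosomes. Brightness differed between the channels and between animals. In tiled windows 66.2% to 69.6% of IP values were well above background on every array. In the input this share was 29.1% in sham 1, 51.2% in sham 2 and 56% in sham 3, and 36.9%, 64% and 31.2% in CCI 1, 2 and 3. The groups overlapped, and the lowest and the highest share fell in different groups. A dim spot stands at or near a floor, so a window made largely of such spots gives only a bound on its level.

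Along these stretches the ratio varied widely and in nearly the same way in every animal, while no window passed the test between the groups. Limma, fitted over all 10582 windows with Benjamini-Hochberg adjustment, called 0 tiled windows at an adjusted p under 0.05 (percent called over the array: 0), and the smallest adjusted p was 1.00. At an unadjusted p under 0.05 in limma, 35 tiled windows (2.25%) differed, against 2.18% over the whole array. Of these, 5 were higher and 30 lower in CCI, where the array as a whole gave 0.425% and 1.76%. This split was not kept: it was 32 higher and 14 lower with loess, 13 and 13 with the median of each probe length removed, and 24 and 21 without CCI 3. Without sham 1, 65 windows reached that p, 11 higher and 54 lower, and without sham 3, 21 did, 4 and 17. Without CCI 2 there were 56, 5 and 51. In 120 tiled windows (7.71%, against 7.13% over the array) the values of the groups did not overlap. Of these, 43 were higher and 77 lower in CCI, where the array gave 2.58% and 4.55%. All of these shares lay near the background. The median window differed by -0.03 between CCI and sham, the 5th and 95th percentiles were -0.23 and 0.17, and over all windows the same 3 values were -0.02, -0.23 and 0.17. The 95% interval of a window's difference reached 0.28 to either side at the median, so differences smaller than this were mostly not detectable with 3 arrays per group. That interval is for a single window before adjustment. Adjustment over all windows asks for more, and windows that differed by -0.41 and 0.37 were not called either.

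The median ratio of the tiled windows was -0.26, -0.26 and -0.25 in the sham animals and -0.26, -0.25 and -0.35 in CCI 1, 2 and 3. CCI 3 alone stood lower, and the other 5 animals lay between -0.25 and -0.26. The groups differed by -0.03 (sham -0.26 ± 0.004, CCI -0.29 ± 0.06, SD, n = 3 each; p = 0.5 by the exact two-sided permutation test, smallest possible 0.1). Without CCI 3 the difference was -0.000412. With loess within arrays it was 0.02, and with the median of each probe length removed it was 0.01, so its sign was not kept. CCI 3 was also the CCI array with the fewest bright input values, although sham 1, with fewer still, stood at -0.26. The part of input brightness in these medians was not tested.

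The IP channel differed far less between animals than the input. Over the 1556 windows, correlations between arrays ran from 0.997 to 0.999 for the IP, from 0.944 to 0.973 for the input and from 0.887 to 0.943 for the ratio (windows share their arrays and are not independent, so these are descriptions). An array's values lay 0.0388 to 0.0602 (SD over windows) from the mean of the 6 arrays in the IP, and 0.148 to 0.188 in the input. The spread of the ratio around its mean, 0.14 to 0.185, was of the size of the input's. Within regions, with each region's own level taken out, the ratio still correlated at 0.854 to 0.917 between arrays, and at 0.825 to 0.905 when the median of each probe length was also removed. For the ratio, animals of the same group correlated at 0.917 on average and animals of different groups at 0.925. Where the mean profile of the 3 sham animals was set against that of the 3 CCI animals region by region, the correlation along the windows was 0.97 at the median region and ran from 0.874 to 0.993.

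**Figure D1:**
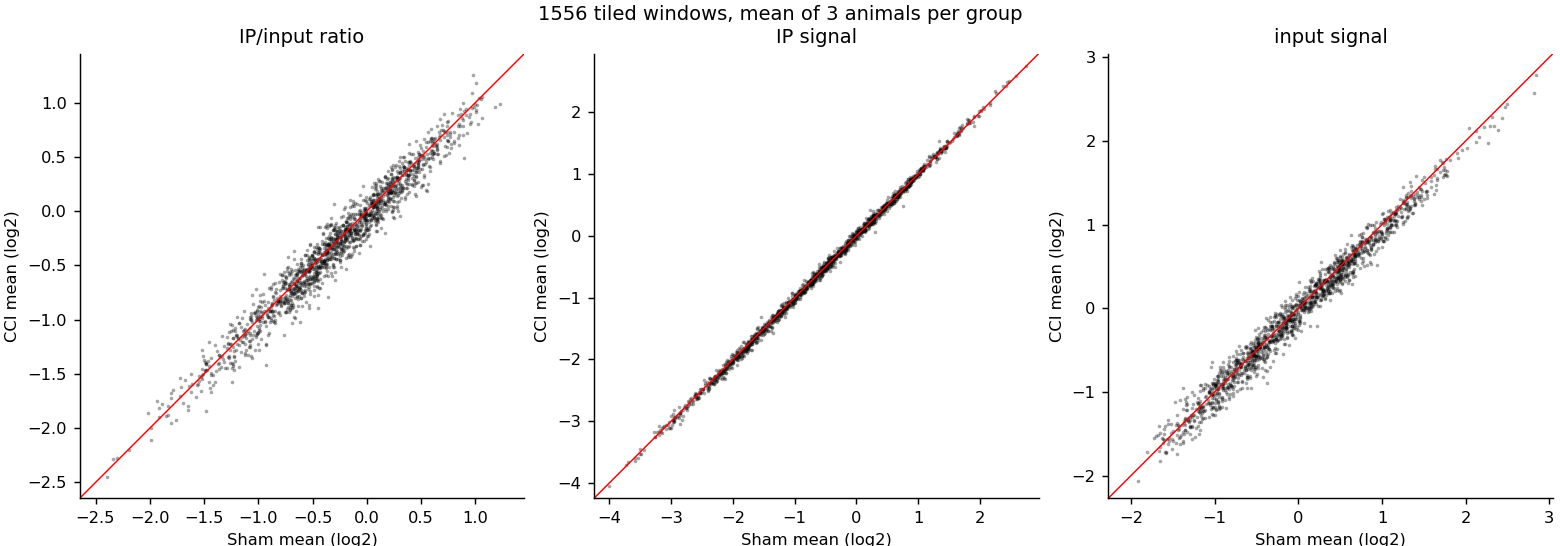
Mean of 3 CCI animals against mean of 3 sham animals for each of the 1556 tiled windows, for the IP/input ratio, the IP signal and the input signal (log2, array median at 0). Each point is a window and the red line marks equal values. The IP points lie closest to the line, with correlations of 0.979 (ratio), 0.999 (IP) and 0.989 (input) between the group means.

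The region with the most windows, chr6:134339829-134439545, gave 53 windows over 99717 bp. Its mean ratio was -0.12, -0.17 and -0.13 in sham 1, 2 and 3 and -0.19, -0.17 and -0.22 in CCI 1, 2 and 3. The groups differed by -0.05 and did not overlap, with all 3 CCI values below all sham values. The region's unadjusted p was 0.627 in limma, which shared its variance estimate with regions of far fewer probes. Windows inside it ranged from -1.47 to 1.11, far wider than the animals. Along the region the ratio and the mean probe length correlated at -0.50, and 49.6% of input and 74.1% of IP values were well above background.

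The second region, chr10:65851074-65948944, gave 49 windows and lay higher, with mean ratios of 0.15, 0.10 and 0.08 in sham and 0.12, 0.09 and 0.11 in CCI. The groups overlapped and differed by -0.0008 in the mean. Its windows ranged from -1.01 to 0.93, and 7 of the 49 had ratios that did not overlap between the groups, where 7.13% of all windows of the array did so. Its level moved with the processing, to -0.06 with loess and 0.32 with the median of probes. A single window near the middle, chr10:65899349-65900889, stood at 2.75 in the IP and 2.70 in the input, so both channels were high there, and its ratio was 0.23 in sham and 0.41 in CCI. The third, chr17:22069800-22160113, with 41 windows, stood at -0.21, -0.20 and -0.15 in sham and -0.21, -0.17 and -0.30 in CCI. Here windows ranged from -1.56 to 1.00, and 5 departed upward and 5 downward from the region's median by more than 0.5 on all 6 arrays.

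**Figure D2:**
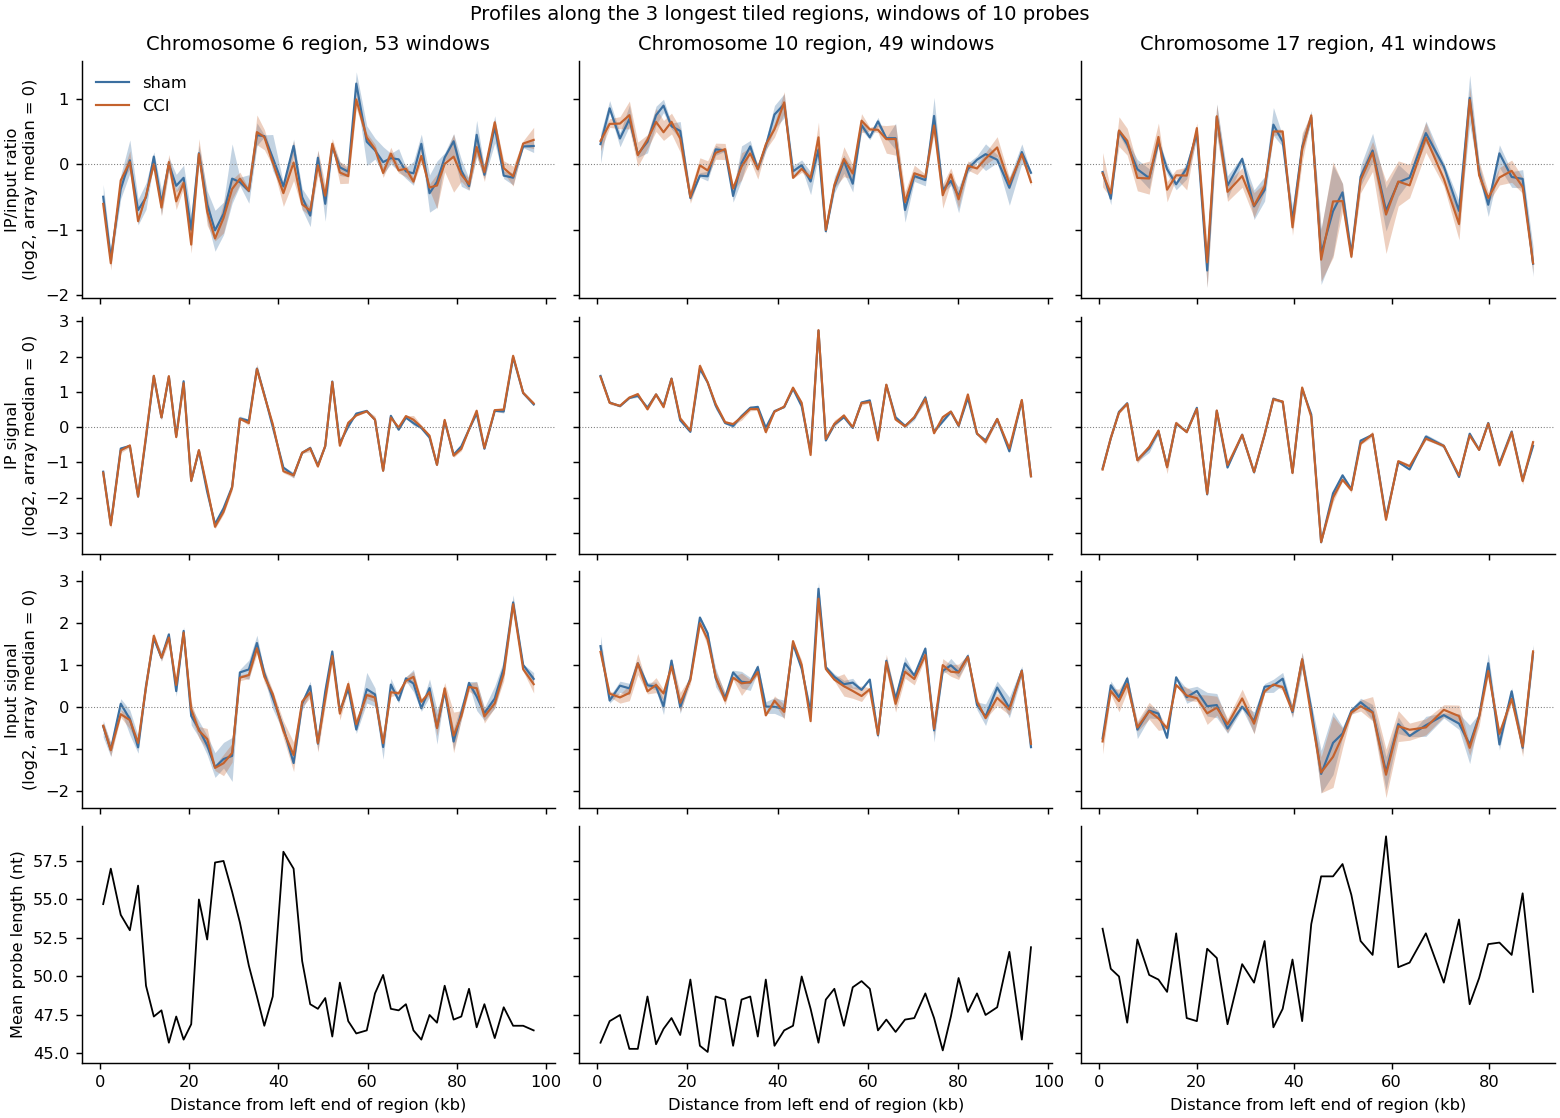
Profiles along the 3 regions with the most windows, against the distance of each window from the left end of its region (kb). Lines are the means of 3 sham and 3 CCI animals, bands their lowest to highest animal, and the rows give the IP/input ratio, the IP and the input signal (log2) and the mean probe length (nt). The lines of the groups follow each other window by window, and the bands are widest in the ratio and the input.

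The remaining long regions showed the same order of sizes. The region chr1:135241889-135304142 (33 windows) had mean ratios of -0.17, -0.15 and -0.18 in sham and -0.15, -0.18 and -0.24 in CCI. The region chr6:134098852-134155478 (30 windows) had 0.13, 0.10 and 0.07 in sham and 0.09, 0.06 and 0.05 in CCI. In both, the groups overlapped. The sign of a region's level was not fixed by these data. Of the 9 regions named for their length or their spread, the mean changed sign in 6 with normexp, 5 with the median of each probe length removed, 4 with probes bright in both channels, 3 with bright input probes, 2 with loess and 3 with the median of probes, and in 0 with quantile or scale normalization or with any array left out. Over the 81 regions the sham mean ran from -1.40 (chr1:116165050-116215045, 24 windows, on probes of 55.07 nt on average) to 0.29 (chr6:136932089-136967543, 19 windows, on probes of 46.15 nt), and 18 of the 81 lay above 0. The difference between CCI and sham ran from -0.12 to 0.05, with a median of -0.03, and was negative in 66 of 81 regions. Regions share the arrays, among them CCI 3 with its lower median, so this count is not 81 separate observations. Limma called 0 of the 81 regions, as it called 0% of the 16019 regions tested over the array. None of the 81 reached an unadjusted p under 0.05 in limma, against 2.63% of all regions. Limma shared its variance estimate with regions of as few as 3 probes. Small differences between means of at least 100 probes could thus hardly reach that p. For example, chr2:180260222-180292951 differed by -0.05 without overlap (sham SD 0.02, CCI SD 0.01, n = 3 each), at an unadjusted p of 0.642 in limma. The count of 0 therefore does not show that tiled regions differed less than others.

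Of the variance of the ratio over the tiled windows, 37.9% ± 4 (SD over the 6 arrays) lay between regions and the rest between windows of a region. The shares were 53.1% ± 0.369 for the IP and 43.5% ± 2.84 for the input. The SD of the ratio between the windows of a region ran from 0.224 to 0.737 with a median of 0.462. It was greatest in chr10:84946025-84978580 (10 windows, from -1.17 to 0.91), then in chr5:121990591-122021611 (12 windows, from -1.55 to 0.75), chr8:44524057-44570592 (23 windows, from -1.88 to 0.71), the chromosome 17 region above and chr3:103203519-103236464 (16 windows, from -1.84 to 0.37). In the first of these the region's mean was -0.27, -0.38 and -0.31 in sham and -0.42, -0.35 and -0.34 in CCI. The windows of each of these regions thus spread over more than 2 log2 units, far wider than the animals' means of a region.

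The highest ratio of any tiled window was at chr3:170001542-170003017, the last window of its region. It was 0.73, 1.29 and 0.92 in sham and 1.24, 1.12 and 1.39 in CCI, so the groups overlapped. All 10 of its probes were well above background in the IP on all arrays, and its probes averaged 45.1 nt. Its mean over the arrays, 1.12, was 0.71 with probe length removed, 0.59 with loess and -0.03 with bright input probes. The next 4 in order were chr6:134396529-134398060 (mean of 6 arrays 1.11), chr10:62756546-62758394, chr5:172897186-172898681 and chr4:57101818-57103909 (1.06). All 5 had probes of 45.1 to 46.6 nt and all 10 probes bright in the IP, and their input stood between -0.54 and 1.05 in sham.

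The lowest ratio was at chr1:116209105-116210887, at -2.11, -2.39 and -2.67 in sham and -2.34, -2.50 and -2.50 in CCI. Its input was above the array median, 1.08 ± 0.17 in sham and 0.97 ± 0.10 in CCI (SD, n = 3), while its IP was below, -1.60 ± 0.04 and -1.71 ± 0.04. A low ratio there went with both a bright input and a dim IP. Of the 5 lowest windows 4 lay on chromosome 1, in the regions chr1:116165050-116215045 and chr1:115312109-115362781. In 1 of them, chr1:116203094-116205239, no probe was well above background in the IP in either group, so its ratio of -2.29 rests on IP values that are bounds, and its input was also nearly all dim. The fifth, chr3:18623004-18624645, stood at -2.49, -2.32 and -2.21 in sham and -1.92, -2.39 and -2.55 in CCI. The 5 lowest windows had probes of 55 to 59.2 nt, and in all 5 the ratios of the groups overlapped. At chr1:115317129-115318738 only 0.5 of 10 probes were well above background in the IP and 1.33 in the input (mean of 6 arrays). The rest had 2.33 to 4.5 such probes in the IP, so their ratios also rest largely on IP values near the floor.

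Probe length, which the array design chose and no animal affects, went with all 3 measures. Over the tiled windows the correlation with mean probe length was -0.677 for the ratio, -0.836 for the IP and -0.754 for the input, and within regions -0.437, -0.631 and -0.535. In the 123 windows with probes of 45 to 46 nt the median ratios of the groups were 0.30 ± 0.03 (sham) and 0.28 ± 0.05 (CCI; SD, n = 3). In the 325 windows with probes of 54 to 60 nt it was -0.89 ± 0.13 and -0.93 ± 0.18. Bright input values made up 66.7% of the shortest class and 24.6% of the longest, and bright IP values 89.9% and 43.5%. In every class the ratio medians of sham and CCI were closer to each other than to those of the next class. Along a region the ratio ran against probe length in 78 of 81 regions, with a median correlation of -0.466. Base composition was not analysed here, so the part of length, sequence and dimness cannot be told apart.

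**Figure D3:**
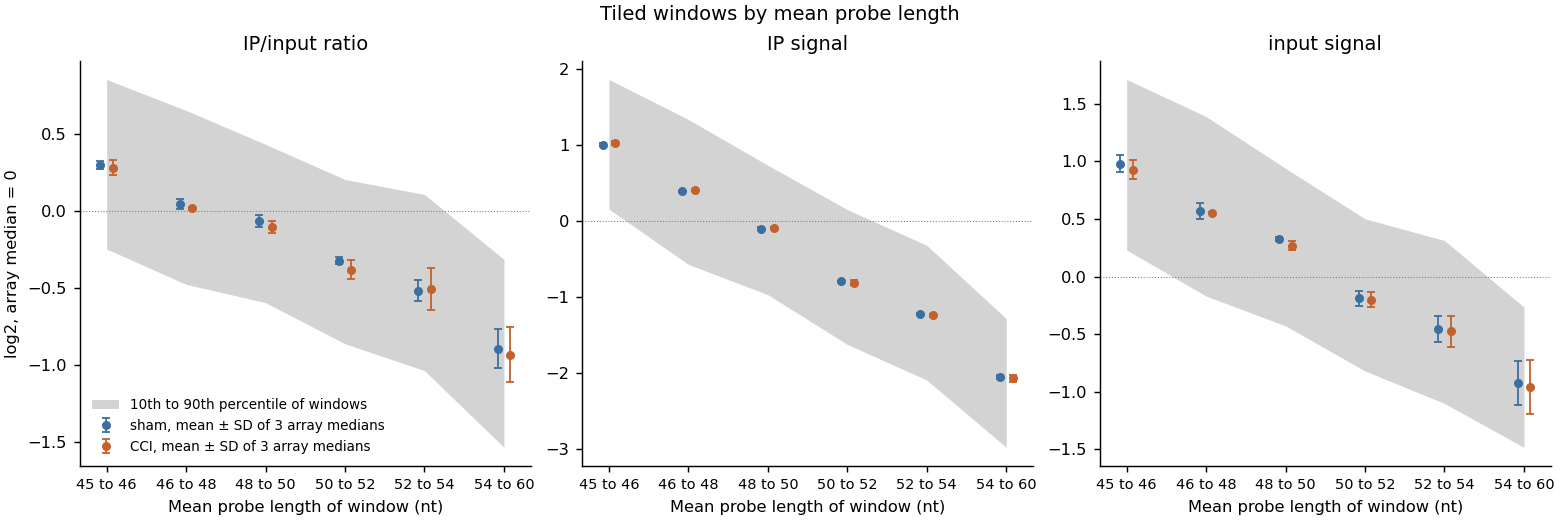
Median of the tiled windows by mean probe length (nt) for the IP/input ratio, the IP and the input (log2, array median at 0). Points are the means of 3 array medians with SD for sham and CCI, and the grey band spans the 10th to 90th percentile of windows. All 3 measures are lower in classes of longer probes, from 0.30 to -0.89 for the ratio in sham, and the points of the groups lie close together.

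Compared with windows in other regions, the tiled windows stood lower in both channels. The median ratio was -0.27 in tiled windows and -0.09 in the others (mean of 6 arrays), a difference of -0.18 ± 0.04 (SD, n = 6) that ran from -0.25 to -0.14 and was negative on 6 of 6 arrays. The exact two-sided sign-flip permutation test over the 6 arrays gave p = 0.031, the smallest it can give. All 6 arrays hold the same probes, so this p measures agreement between arrays and not the spread between windows or regions. For the IP the difference was -0.64 and for the input -0.45, again negative on 6 of 6 arrays (exact sign-flip permutation p = 0.031). The difference moved with the treatment of probe length. With the median of each probe length removed, the difference was 0.08 in the ratio, 0.09 in the IP and -0.06 in the input. With only probes well above background in the input it was 0.03 in the ratio. The sign of the difference in ratio is therefore not settled by these arrays.

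Windows of the same region were alike in level. Windows next to each other, 1941 bp apart at the median (1475 pairs), correlated at 0.393 ± 0.045 in the ratio (SD over 6 arrays), with means of 0.392 in sham and 0.394 in CCI. The IP correlated at 0.582 and the input at 0.473. At 10 windows, or 19530 bp (746 pairs), the correlations were 0.326, 0.478 and 0.394. Pairs were pooled over all regions with each region's own level left in. The correlations thus include the differences between regions, which held 37.9% of the variance of the ratio. Whether neighbours were alike beyond the level of their region was not tested. Mean probe length itself correlated at 0.748 between neighbours and 0.624 at 10 windows. With the median of each probe length removed, the correlation of neighbours was 0.0709 in the ratio, 0.0933 in the IP and 0.0886 in the input. With only probes well above background in both channels (400 pairs), a filter chosen after the data were seen, it was 0.0324, 0.0541 and 0.0402. The correlations were thus low after either step. Removing length also removes whatever goes with length, and the filter kept windows with as few as 3 bright probes. The part of length, sequence and dimness in the likeness was not tested. The values of each window still agreed between animals. Over the 703 windows kept by that filter the ratio correlated at 0.912 to 0.979 between arrays.

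**Figure D4:**
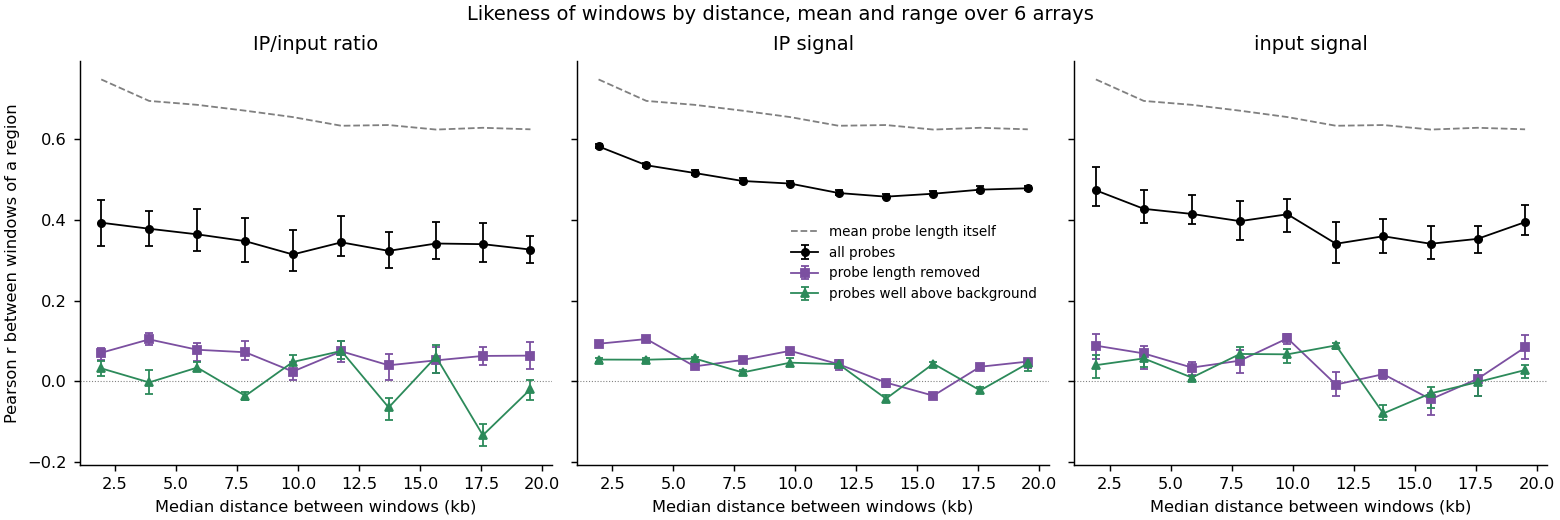
Pearson correlation between windows of the same region against their median distance (kb), for the IP/input ratio, the IP and the input. Pairs are pooled over regions with each region's own level left in. Points are means over 6 arrays with bars from the lowest to the highest array, for all probes, with the median of each probe length removed, and for probes well above background in both channels. The dashed line is the correlation of mean probe length, 0.748 at 1 window and 0.624 at 10, and the black points follow its slow decline.

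The IP and the input were themselves correlated over the tiled windows, at 0.903, within regions at 0.841, and at 0.71 with probe length removed. High and low windows were therefore mostly shared by both channels. To find places where the ratio stood apart, a step was defined as a window whose ratio differed from the median of its region by more than 0.5, in the same direction, on all 6 arrays. There were 108 steps upward (6.94% of windows, in 65 regions) and 94 downward (6.04%, in 53 regions). The counts depend on the processing. With normexp, whose offset of 50 compresses the ratios, there were 3 and 0, with loess 16 and 36, and with the deposited log ratio 59 and 57. In the upward steps the IP stood 1.095 above its region's median (median of steps) and the input 0.16, and the IP departed the same way in 103 of 108. In the downward steps the IP stood at -1.17 and the input at -0.26, and the IP departed the same way in 86 of 94. The input departed the opposite way in 37 and 36 of them. In the median step the IP thus departed more than the input, which the definition of a step largely sets in advance. The log2 ratio is the IP minus the input, so where the input departs the same way, the IP must depart further. These counts therefore describe the steps and do not test which channel made them. Probes were shorter than the region's median in 86 of the 108 upward steps and longer in 74 of the 94 downward ones, and with probe length removed 39 and 42 of them remained.

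Steps were mostly 1 window wide. The upward steps formed 88 single windows, 7 pairs and 2 runs of 3, and the downward steps 82 singles and 6 pairs. The longest upward runs were both on chromosome 3. At chr3:8859501-8865737, which covers windows 4 to 6 of 14, the ratio was 0.96, 0.79 and 0.82 in sham and 0.90, 0.77 and 0.95 in CCI. The groups overlapped, and the IP stood 0.88 above the region's median against 0.14 for the input. At chr3:103203519-103209507, windows 1 to 3 of 16, the ratio was 0.29, 0.38 and 0.41 in sham and 0.02, 0.24 and 0.01 in CCI. Here the groups did not overlap, the probes were long (53.53 nt) and only 2.39 of 10 per window were bright in the input. The downward pair with the greatest departure was chr10:74884347-74888848, at -1.25, -1.45 and -1.01 in sham and -1.22, -1.04 and -1.47 in CCI, again with overlap.

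The first and last windows of the regions were set against the inner ones, as a check on how tiling ends. The ratio of end windows was -0.29 and that of inner windows -0.33. The difference was 0.04 ± 0.02 (SD, n = 6), positive on 6 of 6 arrays (exact sign-flip permutation p = 0.031, the smallest possible). This p again measures agreement between arrays that hold the same probes, not the spread between regions. The IP differed by -0.03 and the input by -0.07, but with windows cut from the right end these were 0.08 and 0.04, and with probe length removed the IP difference was 0.06. End windows had a mean probe length of 51.18 nt against 50.88 nt. The difference in ratio was 0.01 with windows of 5 probes and -0.02 with probes joined under 500 bp. It was thus smaller in the first and of the other sign in the second, so its sign depended on the joining distance.

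The windows with the lowest p in each direction among those whose groups did not overlap are described by their values alone, because the adjusted test called none. The lowest p among those lower in CCI was at chr10:65865015-65866523, the window 8 of 49 in the long chromosome 10 region. Its ratio was 0.79, 0.90 and 0.99 in sham and 0.43, 0.67 and 0.36 in CCI. All 3 CCI values lay below all 3 sham values. The difference was -0.41 ± 0.12 (SE), or 1.32-fold, with an unadjusted p of 0.00646 and an adjusted p of 1.00 in limma. It was -0.08 with bright input probes, -0.13 with normexp and -0.22 with the median of probes. The IP of this window was 0.59, 0.63 and 0.58 in sham and 0.60, 0.58 and 0.53 in CCI, which overlapped, while its input differed by 0.31. The windows to its left and right differed by -0.10 and 0.07. The difference was thus in 1 window of 1509 bp and was larger in the input than in the IP. The picking by the p of the ratio favours this form. Arrays spread 0.148 to 0.188 around their mean in the input and 0.0388 to 0.0602 in the IP. In all windows picked this way, a larger difference in the input, or than in the neighbours, is a description. It does not test which channel differed between the groups.

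In the other 4 the input also differed more than the IP, in chr8:44497873-44499664 only barely (0.13 and -0.12). At chr7:62779489-62780955 the ratio was -0.76, -0.54 and -0.53 in sham and -1.16, -0.84 and -1.06 in CCI, with an input difference of 0.27 and an IP difference of -0.07. At chr7:123688528-123690026 it was 0.66, 0.54 and 0.45 against 0.12, 0.20 and 0.28, with -0.05 in the IP and 0.24 in the input. The window to its right differed by -0.29 as well. At chr8:44497873-44499664 the ratio was 0.43, 0.49 and 0.45 in sham and 0.03, 0.23 and 0.15 in CCI. This window had an IP that did not overlap either, at -0.95, -0.83 and -0.94 in sham and -0.98, -1.05 and -1.06 in CCI, and its right neighbour differed by -0.49. At chr1:153471967-153473656 the ratio differed by -0.33, the IP by -0.01 and the input by 0.26. In these 4 windows, in the order given, 1.83, 5.33, 2.67 and 2.17 of 10 probes were well above background in the input (mean of 6 arrays). The input differences of all but the second thus rest mostly on dim spots.

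Among windows higher in CCI, the lowest p was at chr13:109374581-109376927, with ratios of -0.25, -0.26 and -0.39 in sham and 0.05, 0.02 and 0.14 in CCI. The groups stood apart by 0.37 ± 0.11 (SE; unadjusted p = 0.00612 and adjusted p = 1.00 in limma), and by 0.58 with loess and 0.03 with the median of probes. Its IP means were both -0.38, and its input was 0.24, 0.22 and 0.22 in sham and -0.21, -0.11 and -0.31 in CCI. The difference in ratio there lay in the input. The other 4 had the same form, with inputs that did not overlap: chr11:33526106-33527702 differed by 0.30 in the ratio and -0.43 in the input, chr4:63804198-63805703 by 0.37 and -0.38, chr7:31134188-31136743 by 0.30 and -0.37, and chr18:57361423-57362894 by 0.28 and -0.33. The last turned to -0.13 when only probes well above background in the input were kept. The windows higher in CCI had 4 to 5.5 of 10 probes well above background in the input (mean of 6 arrays). Of the 10 differences, 10 shrank by more than 1.5 times with normexp, 5 with the median of probes, 2 without sham 1, and all 4 that could be computed with bright input probes. Of these 10 windows, the IP did not overlap between groups in 3, namely chr7:123688528-123690026, chr8:44497873-44499664 and chr4:63804198-63805703. Over the array the IP did not overlap in 17.1% of windows. The 10 were picked for ratios without overlap, so their count cannot be weighed against that share.

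**Figure D5:**
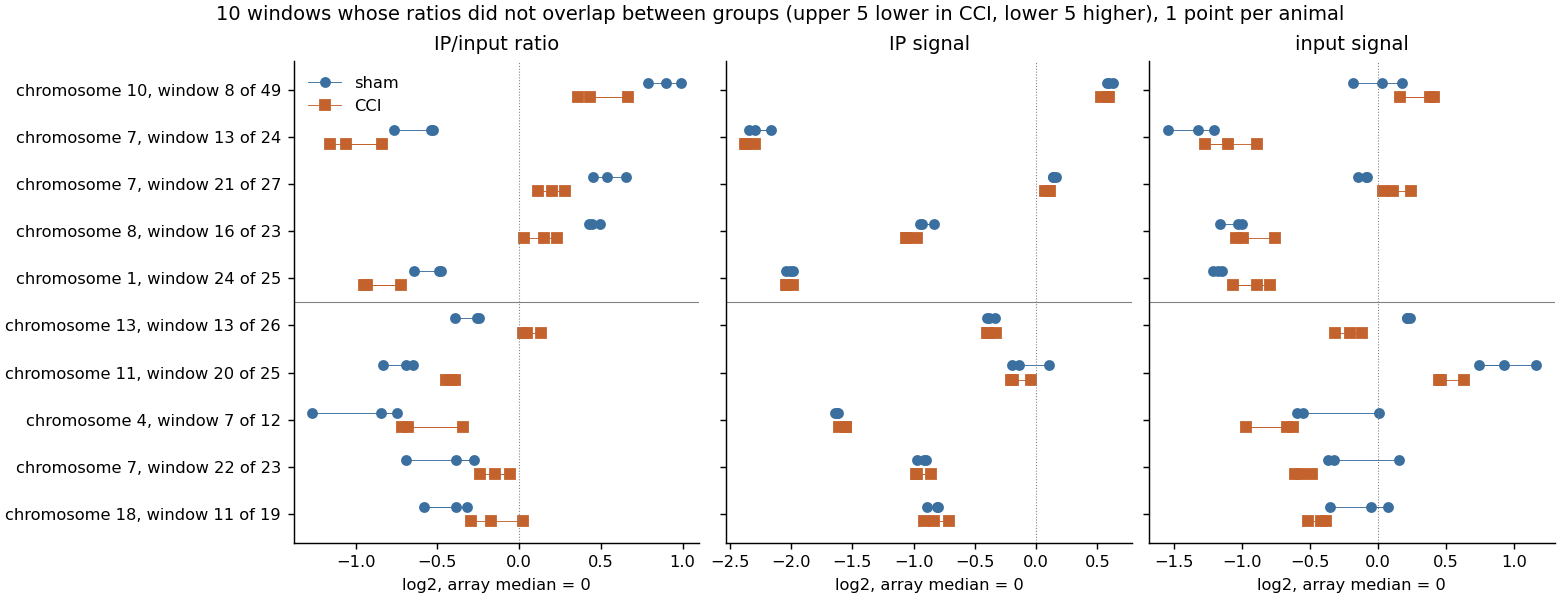
Ratio, IP and input (log2, array median at 0) of each animal in the 10 windows with the lowest p among those whose ratios did not overlap, 5 lower in CCI above the line and 5 higher below it. Circles are sham and squares CCI animals, and windows are numbered from the left end of their region. The ratios of the groups stand apart in every window shown, while most IP values lie close together.

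Tested alone, the IP channel gave 0 tiled windows at an adjusted p under 0.05 in limma (percent called over the array: 0), with a smallest adjusted p of 0.134. At an unadjusted p under 0.05 there were 167 (10.7%, against 10.3% over the array), 74 higher and 93 lower in CCI, where the array gave 7.16% and 3.09%. This balance turned with the arrays used: it was 110 higher and 61 lower without CCI 2, 80 and 180 without CCI 3, and 185 and 76 with the scan as a block. Without sham 3 there were 104, 47 and 57. With quantile normalization it was 66 and 150. The groups did not overlap in 265 (17%, against 17.1%), 119 higher and 146 lower in CCI, where the array gave 11.7% and 5.39%. Only the totals lay near those of the array. By unadjusted p and by non-overlap alike, more tiled windows were lower in CCI, while more windows of the array were higher. The lowest p was at chr13:45070678-45072768, where the IP was 1.37, 1.30 and 1.35 in sham and 1.54, 1.53 and 1.55 in CCI. The difference of 0.20 ± 0.03 (SE; limma unadjusted p = 5.57e-05, adjusted p = 0.134) was larger than the spread of the animals, while the input of the same window, 2.35, 1.75 and 2.01 against 2.28, 2.04 and 2.15, overlapped and the ratio differed by 0.02. At chr2:12285248-12286955 the IP was 0.20, 0.26 and 0.20 in sham and 0.42, 0.40 and 0.44 in CCI, and its ratio differed by -0.04. Among windows lower in CCI the lowest p was at chr7:29085144-29086757, with an IP of -1.36, -1.35 and -1.34 against -1.64, -1.49 and -1.58, and a ratio difference of -0.17 with no overlap. With limma's trend and robust settings the first 2 of these windows passed (adjusted p = 0.0126 and 0.0262 in limma), and 0.0945% of all windows of the array were called under those settings.

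With only probes well above background in both channels, limma called 9 of the 703 tiled windows that kept enough probes in the IP (1.28%), against 1.24% of the 6388 windows of the array. The window chr13:45070678-45072768 was among these 9, with a difference of 0.22 and an adjusted p of 0.00431. The arrays were scanned in 2 sets, and CCI 3 was the only CCI array scanned with the 3 sham arrays. With the scan as a block limma called 5 tiled windows in the IP (4 with the arrays of that scan alone, against 0.274% of the array), and none of them was among those 9. The share called over the array under that setting was 0.359%. These calls compare CCI 3 alone with the 3 sham animals, so injury and that single animal cannot be told apart in them. The input channel gave 0 tiled windows at an adjusted p under 0.05 in limma (percent called over the array: 0), 21 at an unadjusted p under 0.05 (1.35%, against 1.15%), 2 higher and 19 lower in CCI, where the array gave 0.387% and 0.765%. This split also was not kept: it was 20 higher and 8 lower with probe length removed, 26 and 11 with the scan as a block, 13 and 10 without CCI 2, and 19 and 20 without sham 1. Without sham 3 it was 1 and 39, without CCI 1 it was 1 and 9, and without CCI 3 it was 2 and 44. The inputs did not overlap in 116 (7.46%, against 6.51%), 27 higher and 89 lower in CCI, where the array gave 1.79% and 4.73%.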

How the data were processed

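Per the file headers, the deposited intensity values came from Agilent Feature Extraction 11.0.1.1 on an array designed on rn4, where the software had subtracted background, removed spatial trends and applied a linear factor to each dye, with dim spots at a floor. The deposited log10 ratio column served as an alternative. Other steps of the authors are not given in the sources used here. Of 179525 spots, 6856 controls were left out, as were 656 probes with an outlier flag on any array (59 of them in tiled windows, at least 9 probes left in each). Log2 of red over green, and of each channel, was centred on each array's median over the remaining probes, with no loess or quantile step. A window's value is the mean of its probes. CCI and sham were compared over all windows with lmFit and eBayes (limma 3.58.1, R 4.3.3) and Benjamini-Hochberg adjustment; single values per array by exact permutation. The number of arrays limits the precision. The labels call the animals biological replicates. Same-numbered animals were not treated as pairs. Named windows follow a rule: per direction the 5 lowest p without overlap, the 5 highest and lowest ratios, the 5 regions with most windows and the 5 with the largest SD, and the longest runs of steps. The IP windows were picked by lowest p after their values were seen. The members, rules and lists were chosen with earlier results of these data known. Alternatives were other background and between-array steps, flags, filters on dim probes, probe length, window size and cutting, joining distance, scan and replicate blocks, other limma settings, and leaving out each array. Figures were drawn with matplotlib 3.10.9.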

Additional observations from a re-analysis of the deposited data

How the results depend on the processing

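Limma called 0 tiled windows in the ratio and in the input, and 0 tiled regions, under every alternative that was run, including the replicate block, and 0 to 0 in the ratio, IP and input when any array was left out. In the IP it called 5 with the scan as a block (0.359% of all windows of the array were called), 4 with the arrays of the shared scan alone (0.274%), 2 with trend and robust settings (0.0945%) and 9 with probes bright in both channels (1.24%). The first 2 counts rest on CCI 3 as the only CCI animal. The last filter was chosen after seeing the data. The median difference in ratio between CCI and sham turned to 0.0152 with loess and 0.0134 with probe length removed, was -0.0953 on the shared scan alone, and ran from -0.0513 to -0.000412 without an array, the latter without CCI 3. The difference between tiled and other windows was -0.0235 with loess and -0.00383 with windows of 20 probes, turned to 0.0324 with bright input probes, 0.0401 with probes bright in both channels and 0.0775 with length removed, and ran from -0.187 to -0.164 without an array. In the IP it turned to 0.0867 with length removed. End minus inner windows gave 0.0221 with the median of probes, 0.0110 with windows of 5 probes and -0.0153 with joining under 500 bp, and 0.0343 to 0.0446 without an array. With 5 arrays the exact test cannot go below 0.0625. In the IP the end difference turned to 0.0564 with length removed, 0.0801 with windows cut from the right end and 0.00636 with 20 probes, and in the input to 0.0366 from the right end. The correlation of neighbours was 0.285 with normexp, 0.116 with loess, 0.270 with the deposited log ratio, -0.00236 with bright input probes, 0.0709 with length removed, 0.249 with 5 probes, 0.531 with 20 probes and 0.0324 with probes bright in both channels, and 0.381 to 0.404 without an array. The window chr18:57361423-57362894 turned to -0.133 with bright input probes and -0.131 with probes bright in both channels. The causes were not tested. Same-numbered deviations correlated at -0.0375 to 0.263 and others at -0.382 to 0.228, and 1 of 3 sham arrays correlated best with its own number, so the numbers were not taken as pairs; the replicate block gave 0 calls.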
